A study of Rattus norvegicus with 27 samples.

Results

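Genes of the interferon response and of antigen presentation were examined in cultured primary rat Schwann cells, the glia of peripheral nerves, at 3 culture stages. Members were chosen by gene name: rat major histocompatibility complex genes (names starting RT1-), the Irf, Ifit and Oas families, interferon-inducible proteasome parts, Stat genes and named genes of peptide loading, sensing and antiviral defence. They came to 91 of the 17315 genes in the cell mRNA table, and 42 of the 91 passed the filter on low counts that 10372 genes passed in all. *Nlrc5* was not analysed here.

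Interferons bind cell-surface receptors whose Janus kinases phosphorylate Stat proteins, which with Irf9 form a transcription factor complex that binds a promoter element called the interferon-stimulated response element (ISRE). Class I molecules, made of a heavy chain and beta-2-microglobulin, carry peptides cut by the proteasome and pumped into the endoplasmic reticulum by the Tap transporter. Class II molecules carry peptides from endosomes and are made mainly by professional antigen-presenting cells, although Schwann cells in inflamed nerve are known to be able to make them.

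Each stage had 3 libraries labelled as biological replicates. Undifferentiated cells were kept without dibutyryl cyclic AMP (dbcAMP), a cell-permeable form of the second messenger cyclic AMP, and the labels do not give their medium beyond that. For differentiated cells, 1 mM dbcAMP was added over 72 h in medium with 1% serum, after an overnight rest in low serum. Dedifferentiated cells received the same and then 72 h without dbcAMP in a complete medium with 10% serum, forskolin and neuregulin, so dbcAMP, serum and growth factors changed together. All cells were purchased primary cells used at low passage, and the labels do not say that replicates came from separate animals, so p-values measure only the spread between these libraries. Libraries held 10058735 to 16212278 estimated counts, and 3 counts, the most that a count of 0 allows, correspond to 0.185 to 0.298 CPM (a gene's count scaled to its library's total count). Of 9 Schwann cell marker genes measured, 8 passed the filter, *Fabp7* was at 0, and their summed level was 8374 to 26837 CPM. Of 14 white blood cell markers 3 passed the filter, *Aif1*, *Cx3cr1*, *C1qa*, *C1qb* and *C1qc* were at 0 in every library, and *Ptprc* reached at most 0.677 CPM. The summed level of those 14 was 3.87 to 8.46 CPM in undifferentiated, 6.17 to 7.1 in differentiated and 4.67 to 8.14 in dedifferentiated libraries. The 4 dendritic cell markers summed to 2.4 to 3.22, 9.11 to 14.7 and 7.45 to 10.1 CPM at these stages, nearly all of it *Zbtb46*. The 7 T and NK cell markers, of which *Cd3e*, *Cd3d*, *Cd8a*, *Nkg7* and *Klrb1a* were at 0, summed to 0.0961 to 0.589, 2.62 to 4.35 and 1.81 to 3.14 CPM. Nearly all of that was *Cd3g*, which was called higher under dbcAMP (log2 change 3.28, adjusted p = 0.000164), as were *RT1-DMa*, *Irf5* and *Irf7*. *Cd3g* passed the low-count filter only through libraries of the later stages, so a difference was built into its being tested. Markers of endothelial cells summed to 10.6 to 10.8, 7.66 to 10.5 and 17.3 to 27.6 CPM. *Cdh5* and *Cldn5* were at 0, while *Vwf*, *Tek* and *Egfl7* passed the filter. *Vwf* was at 0 in undifferentiated libraries and measured 1.11, 0.849 and 0.802 CPM in differentiated and 14.6, 7.95 and 7.9 in dedifferentiated ones. *Tek* was called higher than in undifferentiated cells at both later stages (adjusted p = 0.000851 and 0.00588). *Egfl7* changed by -2.69 on the log2 scale under dbcAMP (adjusted p = 1.29e-05) and by 2.10 on withdrawal (adjusted p = 0.000163). The 8 fibroblast and perineurial markers summed to 24390 to 29100, 11956 to 15622 and 15975 to 19392 CPM, nearly all of it the collagen genes *Col1a1* and *Col1a2*, while *Lum* was at 0 and *Dcn* and *Pdgfra* reached at most 0.884 CPM. *Col1a1* changed by -1.42 on the log2 scale under dbcAMP (adjusted p = 4.53e-05) and by 0.71 on withdrawal (adjusted p = 0.00675). It so moved in the directions of *Ifit2*, *Irf9*, *Psme1* and *Psme2*, but the other tested markers of this list did not do so. *Col1a2* changed by -0.37 under dbcAMP (adjusted p = 0.0119) and by -0.16 on withdrawal, which was not called (adjusted p = 0.259). *Thy1* and *Slc2a1* were called in neither comparison. The part of these cell types in the results was not tested.

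Under dbcAMP the peptide transporter gene *Tap1*, the class II chaperone gene *RT1-DMa* and the regulators *Irf5* and *Irf7* were higher, while *Ifit2*, *Irf9*, *Irf3*, *Stat2* and the proteasome activator genes *Psme1* and *Psme2* were lower. *B2m* was called lower there only in some fits, among them that with the replicate number as a block (adjusted p = 0.000466, against 0.0779 without). After withdrawal *B2m*, *Tapbp*, *Stat2*, *Irf9*, *Psme1*, *Psme2* and *Ifit2* were higher than under dbcAMP, and *Tap1*, *RT1-DMa* and *Irf5* were lower. *RT1-DMa* and *Irf5* passed the low-count filter through their differentiated libraries, so a difference was built into their being tested. Some genes that mark an interferon response in most cells, among them *Isg15*, *Mx1* and the Oas family, gave next to no counts at any stage. Of 36 other interferon-induced genes measured, 25 passed the filter and 3 had no count. Among them *Gbp2* measured 894 ± 22.2, 450 ± 206 and 751 ± 321 CPM from the first stage through to the last (SD, n = 3).

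Between differentiated and undifferentiated cells 13 of the 42 tested members were called at an adjusted p under 0.05, 5 higher and 8 lower. That is 31% of the tested members, against 59.6% of all genes tested, of which 31.7% were called higher and 27.9% lower. On withdrawal 12 members were called, 9 higher and 3 lower, or 28.6% of them against 46.4% of all genes, which divided into 23.2% higher and 23.2% lower. The calls under dbcAMP and on withdrawal include *Irf5* and *RT1-DMa*, for which a difference was built into passing the filter. Between dedifferentiated and undifferentiated cells 7 members were called, 6 higher and 1 lower, or 16.7% against 29.4% of all genes, of which 16.1% were called higher and 13.3% lower. In that comparison 85.7% of the member calls were higher, and 75% with DESeq2's size factors or without the 10 most abundant genes. Stages were fully separated, with no library inside the other range, for 12, 14 and 9 members in the 3 comparisons, or 28.6%, 33.3% and 21.4%, against 66.3%, 58.5% and 43.9% of all genes tested. The median log2 changes of the tested members in the 3 comparisons were -0.04, 0.11 and -0.01, beside 0.05, -0.01 and 0.02 over all genes tested, and with library size alone as the scaling the medians for differentiated and for dedifferentiated against undifferentiated cells had the other sign (0.02 and 0.03). The RT1 class I rows made up 19 of the 42, and without them 12, 11 and 7 of the other 23 members were called, or 52.2%, 47.8% and 30.4%. With the replicate number as a block, 15 of the 42 members were called under dbcAMP, 6 higher and 9 lower. All 32 calls had the same direction in both sequencing projects, of which the second held replicate 3 of each stage. The calls were made on these same libraries, so that agreement was largely built in and is not separate evidence. Comparisons that share a stage share its libraries, so their values are set side by side and not counted as separate evidence. In bulk RNA a change in the number of cells expressing a gene and a change in RNA per cell cannot be told apart.

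**Figure D1:**
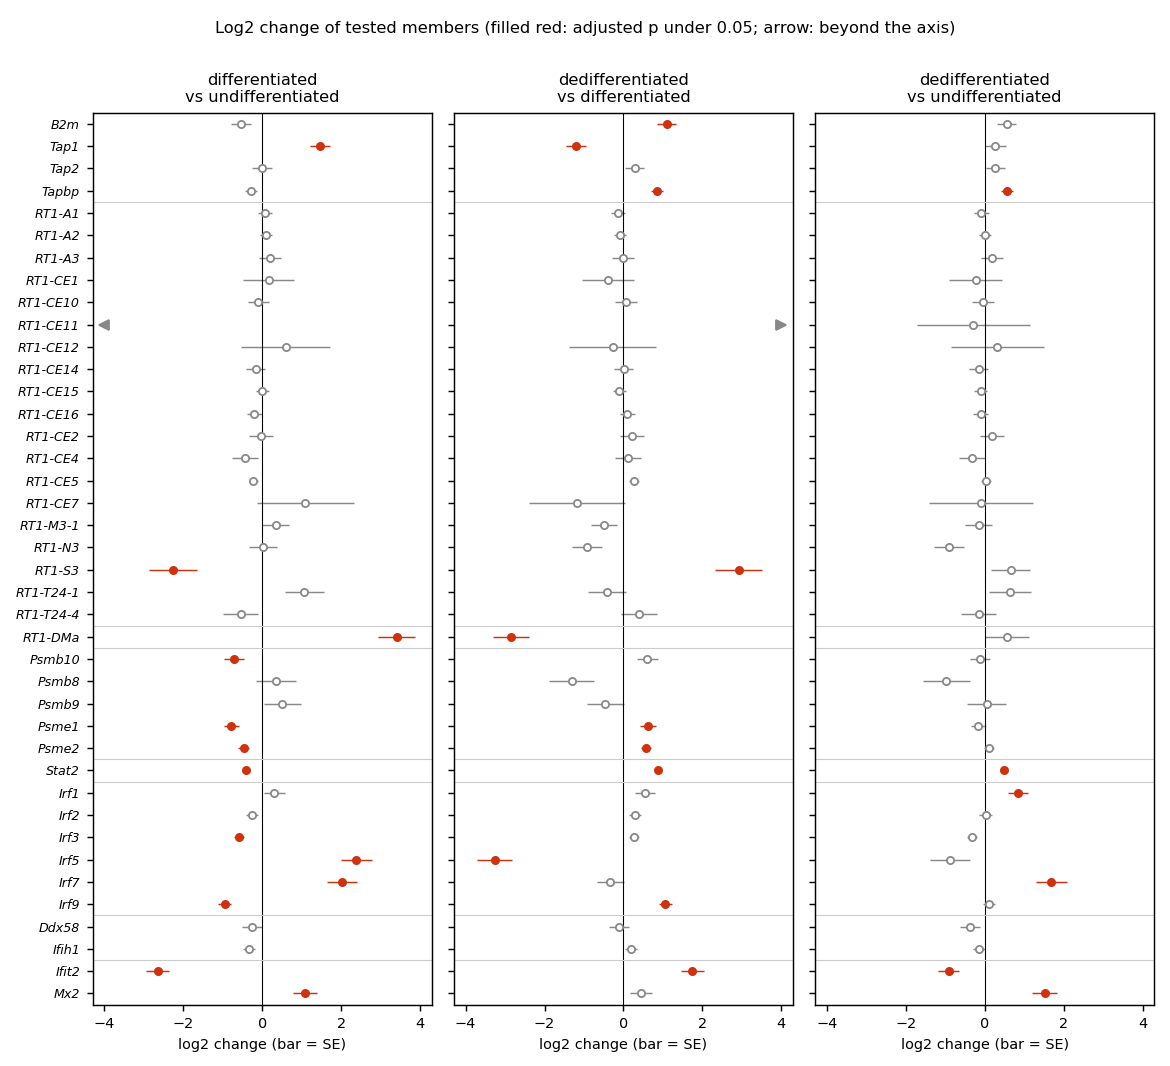
Log2 change (x axis, with its standard error as a bar) of tested members (y axis, ordered by role) in the 3 comparisons. Filled red points have an adjusted p under 0.05, open points do not, and arrows are fitted values beyond the axis. Most class I rows sit near 0, and calls lie mainly among the loading, proteasome, Stat, Irf and effector genes.

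Detection differed by role. All 4 loading genes, all 5 inducible proteasome genes, both sensors and 7 of 9 Irf genes passed the filter, as did 19 of 38 RT1 class I rows. Of 11 class II genes 1 passed, and of 19 effectors 2 passed. Among the 49 members under the filter, 17 had no count in any library and the highest level of any was 1.33 CPM, in *RT1-M6-2*. *Irf5* and *RT1-DMa* passed the filter through their 3 differentiated libraries, so a difference in these genes was built into their passing.

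**Figure D2:**
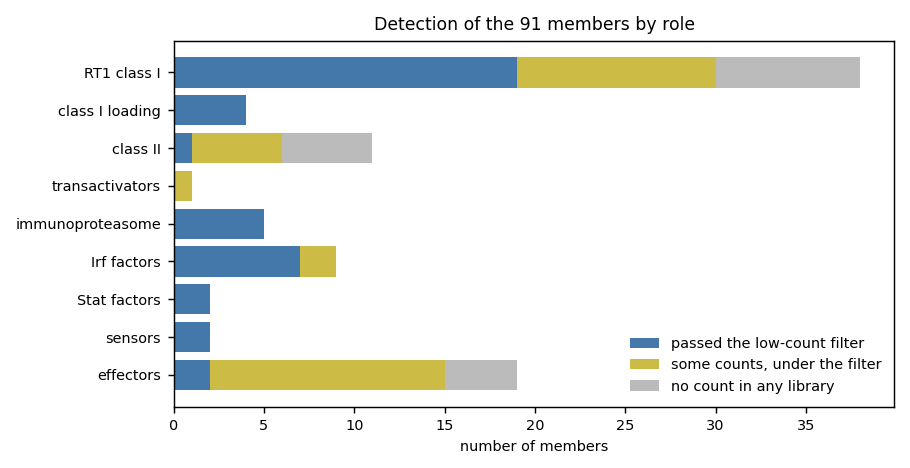
Number of members (x axis) in each role (y axis) that passed the low-count filter, had some counts but did not pass, or had no count in any of the 9 libraries. Of 19 effectors 2 passed, and of 11 class II genes 1 passed, while all 4 loading genes and all 5 proteasome genes did.

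The class I heavy chains, which hold the peptide, were measured at all stages and their total did not differ detectably between them. The 38 class I rows summed to 208, 244 and 236 CPM in undifferentiated replicates 1 to 3, to 182, 279 and 236 in differentiated and to 179, 260 and 246 in dedifferentiated libraries. The ranges of the stages overlapped fully, and replicate 1 was the lowest of each stage. When the rows were replaced by their sum, the log2 change was -0.05 for differentiated against undifferentiated cells (95% interval -0.40 to 0.31, adjusted p = 0.82). It was -0.01 on withdrawal (-0.36 to 0.34, adjusted p = 0.97) and -0.05 for dedifferentiated against undifferentiated cells (-0.41 to 0.30, adjusted p = 0.828). The sign of each of these 3 differences turned when some single library was left out, and that of the first also with library size alone. The rows *RT1-A1*, *RT1-A2*, *RT1-A3*, *RT1-CE5* and *RT1-CE16*, chosen after their values were seen, held 72.6% to 78.2% of the class I counts. *RT1-A2*, a classical class I gene, measured 41.3, 43.9 and 45.1 CPM in undifferentiated, 37, 59.4 and 49.9 in differentiated and 38.6, 50.9 and 46.1 in dedifferentiated libraries, with no adjusted p under 0.574.

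Most single class I rows are uncertain, because fractional values show that reads were shared out between rows by estimation. Of the 38 rows 24 held a fractional value in some library, and of the 19 tested rows *RT1-M3-1* alone held none. Of the values above 0 in class I rows, 82.2% were fractional. *RT1-CE7* had counts in 6 libraries and *RT1-CE11* in the other 3, with no library holding both, and *RT1-CE6* had counts in the same 3 libraries as *RT1-CE11*. The *RT1-CE7* values were 47.1, 74.9 and 61 estimated counts in differentiated libraries, 64.9 in undifferentiated replicate 2, and 22.6 and 47 in dedifferentiated replicates 1 and 3. *RT1-CE11* had 40.7 and 36 in undifferentiated replicates 1 and 3 and 51.9 in dedifferentiated replicate 2. Such a pattern of all or nothing was not seen in the class I total.

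**Figure D3:**
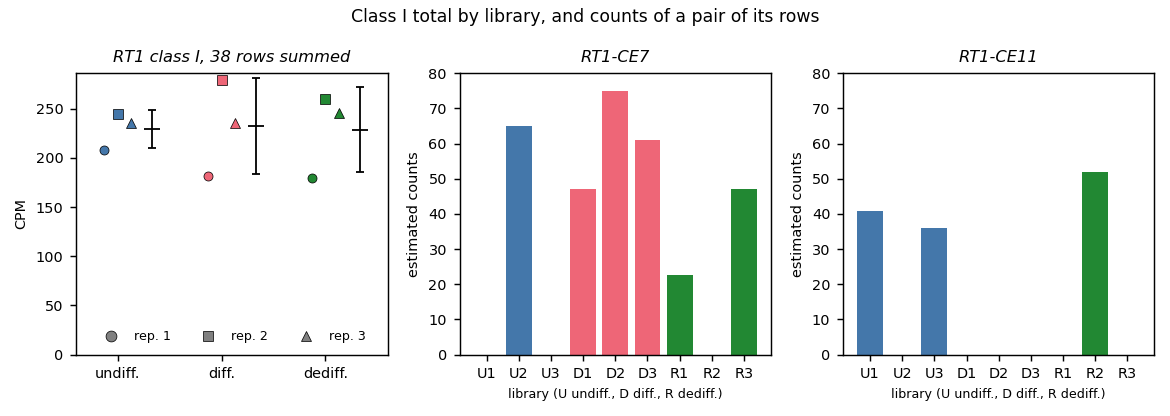
Left, CPM of the 38 class I rows summed (y axis) in each library by stage, with the mean and SD of 3 replicates. Middle and right, estimated counts (y axis) of *RT1-CE7* and *RT1-CE11* in each library, where U, D and R stand for undifferentiated, differentiated and dedifferentiated and the digit for the replicate. The total runs from 179 to 279 CPM with the stages overlapping, and no library has counts in both of the rows at right.

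In the fit with all libraries, *RT1-S3*, a nonclassical class I gene, was the only class I row called in any comparison. It measured 0.99, 2.33 and 0.857 CPM in undifferentiated, 0.148, 0.567 and 0.186 in differentiated and 1.4, 2.71 and 2.5 in dedifferentiated libraries. The differentiated libraries were below all others. The log2 change was -2.26 (SE 0.618, adjusted p = 0.00884) under dbcAMP and 2.92 (SE 0.594, adjusted p = 0.00241) on withdrawal, from 2 to 33.3 estimated counts per library, fractional in all 9 libraries. *RT1-T24-1* was not called under dbcAMP (log2 change 1.07, adjusted p = 0.0896), but was with the replicate number as a block (adjusted p = 0.0496) and without differentiated replicate 1 (0.0269). *RT1-CE11*, at 0 in all differentiated libraries, was called under dbcAMP without a filter (adjusted p = 0.0301) and in 4 of 9 fits when single libraries were dropped, namely undifferentiated replicate 2 and each dedifferentiated replicate (0.0372, 0.0461, 0.0176 and 0.0442). *RT1-CE7* was called under dbcAMP and against undifferentiated cells without undifferentiated replicate 2 (0.00559 and 0.0373). In that fit the undifferentiated libraries left held no *RT1-CE7* counts, as the differentiated libraries held no *RT1-CE11* counts. Each row then passed the filter only through other stages, so a difference was built into these calls where a filter was used. On withdrawal *RT1-CE5* was called without dedifferentiated replicate 1 (0.0295) and *RT1-N3* without differentiated replicate 1 (0.014), a fit in which *RT1-N3* was also called against undifferentiated cells (0.0491). *RT1-M6-2*, named after its values were seen, had 18, 11 and 10 counts in differentiated libraries, none in undifferentiated and 0, 3 and 1 in dedifferentiated libraries, and did not pass the filter. Without a filter it was called under dbcAMP and on withdrawal (adjusted p = 0.0019 and 0.0262). Leaving out differentiated replicate 3, or any replicate of the other stages, let *RT1-M6-2* pass through its differentiated libraries. It was then called under dbcAMP (adjusted p = 0.00235 to 0.00905) and at times on withdrawal, with a difference built into its being tested. *RT1-Cl*, also under the filter, was called lower in dedifferentiated than undifferentiated cells without a filter (adjusted p = 0.0255).

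Of the loading genes, *B2m* encodes beta-2-microglobulin, the light chain of every class I molecule. It measured 325, 465 and 594 CPM in undifferentiated replicates 1 to 3, 260, 301 and 428 in differentiated and 504, 711 and 882 in dedifferentiated libraries. Replicate 1 was lowest and replicate 3 highest at each stage, and within each replicate number the order of the stages was the same. On withdrawal it rose by 1.10 on the log2 scale (SE 0.246, adjusted p = 0.00427), and the libraries of these stages did not overlap. Under dbcAMP the log2 change of -0.54 was not called (SE 0.244, adjusted p = 0.0779). With the replicate number as a block it was called (adjusted p = 0.000466), as it was with the sequencing project as a covariate (adjusted p = 0.0111), without a low-count filter (0.0477) and by DESeq2's Wald test (0.0246). Against undifferentiated cells the dedifferentiated level was not called either (log2 change 0.56, adjusted p = 0.114), and was with the project as a covariate (adjusted p = 0.0219). It was also called with the replicate number as a block (adjusted p = 0.00101), although the numbers were not taken as pairs for these stages. Without undifferentiated replicate 1 or without differentiated replicate 3 the fall under dbcAMP was called (adjusted p = 0.0211 and 0.0284), as it was without dedifferentiated replicate 1 (0.0435).

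*Tapbp* encodes tapasin, which holds empty class I molecules at the transporter. Its levels were 13.1, 14.9 and 16.2 CPM in undifferentiated, 9.43, 14.8 and 13.6 in differentiated and 23.1, 20.8 and 23.5 in dedifferentiated libraries. The dedifferentiated libraries were above all others. It rose on withdrawal by 0.85 on the log2 scale (SE 0.159, adjusted p = 0.00145). It was also above undifferentiated cells by 0.56 (SE 0.158, adjusted p = 0.0223), a call lost in 4 of 9 fits when single libraries were dropped. Those were without undifferentiated replicate 1 or 2 and without dedifferentiated replicate 1 or 3 (adjusted p = 0.0585, 0.06, 0.0612 and 0.0694).

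*Tap1* and *Tap2* encode the subunits of the peptide transporter, and they differed. *Tap1* measured 4.83, 5 and 7.59 CPM in undifferentiated, 12.7, 20.2 and 17.8 in differentiated and 5.34, 6.86 and 9.63 in dedifferentiated libraries. The differentiated libraries were above all others, and the other stages overlapped. It rose under dbcAMP by 1.47 on the log2 scale (SE 0.254, adjusted p = 0.000526) and changed by -1.20 on withdrawal (SE 0.251, adjusted p = 0.00287). *Tap2* measured 10.6, 18.3 and 18.9 CPM in undifferentiated, 10.9, 18.8 and 19.7 in differentiated and 17.5, 23.3 and 18.9 in dedifferentiated libraries. Its stages overlapped and no change was called, with log2 changes of -0.01, 0.28 and 0.27 in the 3 comparisons (adjusted p = 0.979, 0.374 and 0.448). The difference between the changes of *Tap1* and *Tap2* was not itself tested.

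**Figure D4:**
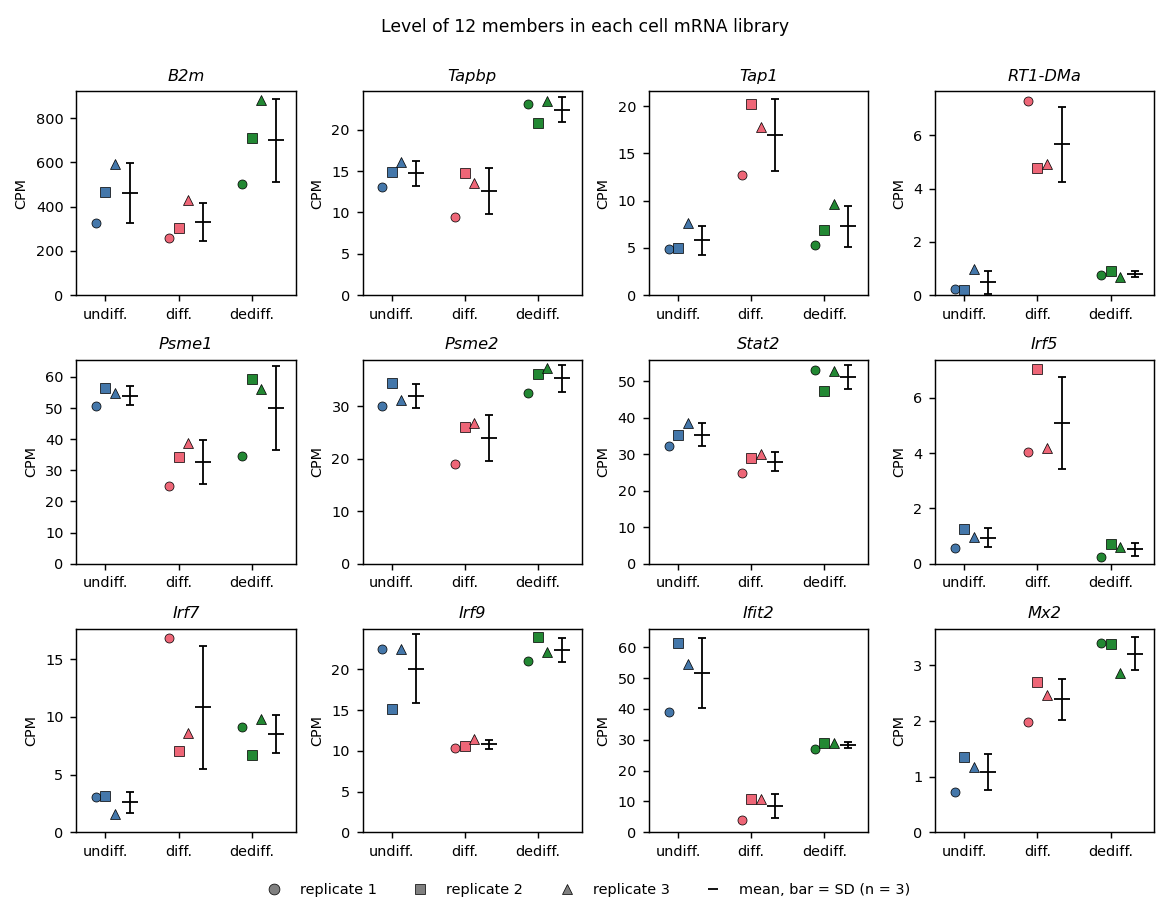
CPM (y axis, from 0) of 12 members in each library by stage (x axis), with symbols for replicates 1 to 3 and the mean with its SD (n = 3) beside them. *Tap1*, *RT1-DMa* and *Irf5* are highest in the differentiated libraries, *Stat2*, *Mx2* and *Tapbp* on average in the dedifferentiated ones, and *Ifit2* and *Irf9* are lowest in the differentiated ones. *B2m* runs from 260 to 882 CPM with replicate 1 lowest at each stage.

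Promoter sequence was available for 71 of the 91 members, 34 of them tested, from RefSeq on build GRCr8. The 250 bases before each gene's start were searched on both strands for the ISRE core, which is GAAA, any 2 bases and GAAA. It was present in 10 of the 34 tested members (29.4%), in 189 of 7956 promoters of genes tested (2.38%) and in 902 of all 27457 promoters (3.29%). The members with it were *B2m*, *Tap1*, *Tap2*, *Tapbp*, *Psmb10*, *Psme2*, *Ifih1*, *Irf7*, *RT1-N3* and *RT1-S3*. The looser core TTCNNNGAA, called GAS, was in 4 of 34 (11.8%), namely *Irf1*, *Irf9*, *Psmb8* and *RT1-M3-1*, and in 5.48% of the promoters of genes tested. Its stricter form TTCCNGGAA, which lies within it, was in 0 of 34 against 1.02%. The cyclic AMP response element TGACGTCA was in 0 of 34 against 3.18%, and the shorter TGACG it contains in 11 of 34 (32.4%) against 29.8%. These are matches of letters in a fixed window and show no binding.

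The following upstream stretches are shown because they belong to members that share the ISRE core and were called in different comparisons and directions. Capitals mark the core on either strand, and each line runs 5′ to 3′ up to the base before the gene's start. *B2m* (chr3:129549080-129549329, plus strand), *Tapbp* (chr20:4967878-4968127, minus strand) and *Psme2* (chr15:33052752-33053001, minus strand) rose on withdrawal. Of these only *Psme2* was called lower under dbcAMP in the main fit. *B2m* was also called lower there in some other fits, among them that with the replicate number as a block (adjusted p = 0.000466). *Tap1* (chr20:4668544-4668793, minus strand) and *Irf7* (chr1:205800024-205800273, minus strand) rose under dbcAMP.
B2m: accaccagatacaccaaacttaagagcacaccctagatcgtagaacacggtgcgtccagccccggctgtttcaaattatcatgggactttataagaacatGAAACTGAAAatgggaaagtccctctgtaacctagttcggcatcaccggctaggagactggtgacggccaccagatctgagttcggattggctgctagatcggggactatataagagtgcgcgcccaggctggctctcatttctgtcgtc
Tapbp: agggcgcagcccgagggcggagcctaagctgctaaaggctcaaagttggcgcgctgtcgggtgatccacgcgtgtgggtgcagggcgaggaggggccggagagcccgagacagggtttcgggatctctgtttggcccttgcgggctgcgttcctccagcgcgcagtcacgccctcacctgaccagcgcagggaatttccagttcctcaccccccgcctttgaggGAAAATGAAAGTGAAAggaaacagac
Psme2: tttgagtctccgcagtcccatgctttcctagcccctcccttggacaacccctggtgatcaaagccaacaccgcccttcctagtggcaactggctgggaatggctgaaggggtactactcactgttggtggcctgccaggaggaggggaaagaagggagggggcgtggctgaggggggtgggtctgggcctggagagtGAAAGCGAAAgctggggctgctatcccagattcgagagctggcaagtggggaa
Tap1: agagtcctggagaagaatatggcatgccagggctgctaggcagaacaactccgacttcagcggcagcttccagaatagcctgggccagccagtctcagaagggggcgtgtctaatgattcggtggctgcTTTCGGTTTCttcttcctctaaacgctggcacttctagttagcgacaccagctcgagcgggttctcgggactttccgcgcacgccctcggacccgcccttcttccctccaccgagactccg
Irf7: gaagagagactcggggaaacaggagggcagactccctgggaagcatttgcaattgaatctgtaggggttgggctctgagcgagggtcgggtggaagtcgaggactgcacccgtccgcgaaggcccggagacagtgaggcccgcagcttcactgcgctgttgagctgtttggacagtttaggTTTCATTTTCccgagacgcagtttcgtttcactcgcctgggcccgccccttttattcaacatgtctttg
In *B2m* the core began at position -150 counted from the gene's start, in *Psme2* at -53, in *Tap1* at -121 and in *Irf7* at -69. *Tapbp* held a pair of overlapping matches, at -26 and -20. The cores of *Tap1* and *Irf7* lay on the strand opposite to the one printed.

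**Figure D5:**
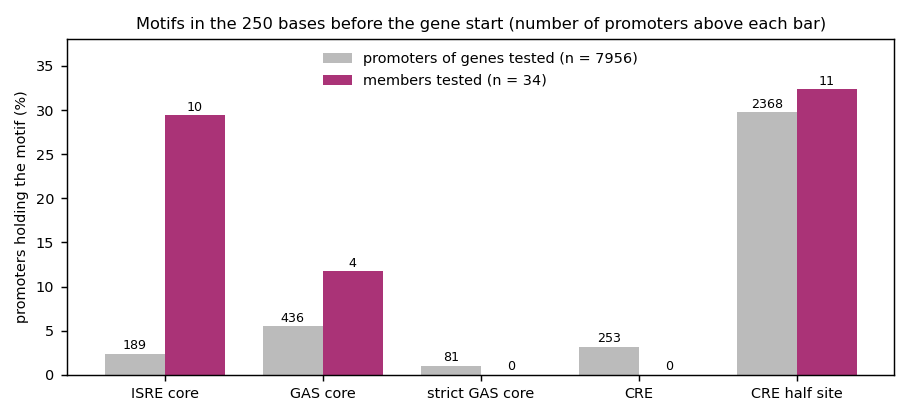
Share of promoters (y axis, %) that hold each motif (x axis) within 250 bases before the gene's start, for the 34 tested members with a promoter in the table and for the 7956 genes tested. Numbers above the bars are counts of promoters, and the ISRE core is at 29.4% of members against 2.38% of genes tested.

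The inducible proteasome genes fell into a group that was lower under dbcAMP and a group with few counts. *Psme1* and *Psme2* encode the activator that opens the proteasome core. *Psme1* measured 50.5, 56.4 and 54.9 CPM in undifferentiated, 25, 34.3 and 38.8 in differentiated and 34.6, 59.3 and 56.3 in dedifferentiated libraries. Dedifferentiated replicate 1 stood with the differentiated libraries. The log2 change was -0.78 under dbcAMP (SE 0.194, adjusted p = 0.00517) and 0.62 on withdrawal (SE 0.194, adjusted p = 0.0229). The second call was lost without differentiated replicate 1, dedifferentiated replicate 2 or dedifferentiated replicate 3 (adjusted p = 0.0776, 0.0901 and 0.0829). *Psme2* measured 30.1, 34.4 and 31.3 CPM in undifferentiated, 19, 26.1 and 26.8 in differentiated and 32.5, 36.2 and 37.3 in dedifferentiated libraries. The differentiated libraries lay below all others, with log2 changes of -0.47 (adjusted p = 0.00874) and 0.57 (adjusted p = 0.00449).

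*Psmb8*, *Psmb9* and *Psmb10* encode the catalytic subunits that replace the constitutive ones in the immunoproteasome. *Psmb10* measured 3.3, 5.67 and 4.71 CPM in undifferentiated, 3.39, 2.62 and 2.65 in differentiated and 3.65, 4.57 and 4.81 in dedifferentiated libraries. Its log2 change of -0.71 under dbcAMP was called (adjusted p = 0.0362), although differentiated replicate 1 lay within the undifferentiated range. The call was lost with library size alone (adjusted p = 0.0534) and in 5 of 9 fits when single libraries were dropped. These were without undifferentiated replicate 2 or 3, differentiated replicate 2 or 3 or dedifferentiated replicate 3 (adjusted p = 0.118, 0.0794, 0.101, 0.105 and 0.0502). *Psmb9* measured 0.886, 2.5 and 1.7 CPM in undifferentiated, 1.33, 2.32 and 3.76 in differentiated and 1.1, 2.09 and 2.18 in dedifferentiated libraries, and its stages overlapped. *Psmb9* is the neighbour of *Tap1* with no protein-coding gene between them in the RefSeq gene order, and it was not called under dbcAMP (log2 change 0.50, adjusted p = 0.375). *Psmb8* measured 0.483, 0.481 and 0.785 CPM in undifferentiated, 0.442, 0.926 and 0.987 in differentiated and 0.339, 0.0994 and 0.451 in dedifferentiated libraries, with its lowest adjusted p of 0.0837 on withdrawal. Of 16 tested genes of the constitutive proteasome and its other activators, 8 were called higher and 1 lower under dbcAMP, and 1 higher and 7 lower on withdrawal, beside 59.6% and 46.4% of all genes tested that were called. Their median log2 changes were 0.24 and -0.22, beside 0.05 and -0.01 over all genes. *Psma3*, a core subunit, measured 46.3 ± 3.84, 111 ± 2.85 and 58.9 ± 0.183 CPM from the first stage through to the last (SD, n = 3), and changed by 1.20 on the log2 scale under dbcAMP (adjusted p = 5.86e-07).

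The class II genes were near 0 at every stage, with *RT1-DMa* as the exception. *Cd74*, the invariant chain that escorts class II molecules, had 1 count over all 9 libraries, and *Ciita*, the master regulator of class II transcription, also had 1. *RT1-Ba*, *RT1-Bb*, *RT1-Da*, *RT1-DOb* and *RT1-Ha* had none. *RT1-Db1* had 27 counts in all, at most 0.678 CPM. *RT1-DMa* encodes a chain of the DM molecule, which exchanges peptides on class II in endosomes. It measured 0.242, 0.192 and 0.981 CPM in undifferentiated, 7.29, 4.78 and 4.93 in differentiated and 0.763, 0.895 and 0.677 in dedifferentiated libraries. The differentiated libraries were far above all others. *RT1-DMa* passed the filter through them, so a difference was built into its being tested. The log2 change was 3.41 under dbcAMP (SE 0.472, adjusted p = 0.000113) and -2.85 on withdrawal (SE 0.452, adjusted p = 0.000512), and dedifferentiated and undifferentiated cells were not distinguished (log2 change 0.56, adjusted p = 0.498). Its partner *RT1-DMb* had 3, 0 and 2 counts in differentiated libraries and none elsewhere.

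Other genes of the class II pathway were measured as well. Of 5 tested factors and endosomal proteases, 3 were called higher under dbcAMP and none lower, a share close to the 59.6% of all genes called there. The median of the 5 was 0.82 on the log2 scale, beside 0.05 over all genes. *Rfx5*, which binds the class II promoter, measured 21.1 ± 1.93, 61 ± 7.18 and 39.7 ± 3.02 CPM from the first stage through to the last (SD, n = 3), and its log2 change under dbcAMP was 1.47 (adjusted p = 1.51e-06). *Lgmn* and *Ctsl*, endosomal proteases, changed by 0.82 and 0.91 (adjusted p = 0.000256 and 0.00584). *Cd86* and *Cd40*, costimulatory genes, had no count in any library. *Cd80*, also costimulatory, did not pass the filter. It was at 0 in undifferentiated libraries and measured 0.663, 1.23 and 1.11 CPM in differentiated and 0.254, 0 and 0.0752 in dedifferentiated libraries. *Cd68*, a lysosomal gene among the white blood cell markers, measured 0.724 ± 0.43, 3.41 ± 0.829 and 1.36 ± 0.724 CPM from the first stage through to the last (SD, n = 3) and so moved with *RT1-DMa* and *Irf5*, while *Ptprc*, *Aif1* and the C1q genes stayed at or near 0. *Csf1r*, the receptor of a macrophage growth factor, was at 0 in the undifferentiated libraries and measured 0.295, 0.849 and 0.987 CPM in differentiated and 0.933, 0.696 and 0.527 in dedifferentiated libraries. It was called higher than in undifferentiated cells at both later stages (adjusted p = 0.00231 and 0.0062). *Csf1r* passed the filter only through libraries of those later stages, so a difference was built into its being tested. *Laptm5*, a lysosomal gene of blood cells, was called lower under dbcAMP (log2 change -1.33, adjusted p = 0.00752).

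*Stat2* carries the interferon signal to the nucleus. It measured 32.3, 35.4 and 38.6 CPM in undifferentiated, 25, 28.9 and 30 in differentiated and 53.2, 47.4 and 52.9 in dedifferentiated libraries, and no pair of stages overlapped. It changed by -0.40 under dbcAMP (adjusted p = 0.0044), by 0.88 on withdrawal (adjusted p = 3.99e-05) and by 0.48 against undifferentiated cells (adjusted p = 0.00359).

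Upstream of it, 8 interferon receptor and Janus kinase genes were tested, and 6 were called lower and none higher under dbcAMP, while 5 were called higher and 1 lower on withdrawal. Of all genes 27.9% were called lower under dbcAMP and 23.2% higher on withdrawal, and the medians of the 8 were -0.30 and 0.35 on the log2 scale, beside 0.05 and -0.01. *Jak1*, a kinase of all interferon receptors, measured 231 ± 21.1, 111 ± 9.53 and 189 ± 19.7 CPM from the first stage through to the last (SD, n = 3). Its log2 change was -1.12 under dbcAMP (adjusted p = 3.06e-06) and 0.78 on withdrawal (adjusted p = 9.13e-05). *Jak2* changed by -0.77 and 0.58, and *Il10rb*, a receptor chain shared by interferon lambda, by -0.82 and 0.75 in the same comparisons. Of 7 tested negative regulators 4 were called higher and 1 lower under dbcAMP, and 2 higher and none lower on withdrawal, where all genes had 59.6% and 46.4% called. The medians of the 7 were 0.29 and 0.04 on the log2 scale, beside 0.05 and -0.01. *Socs3*, a feedback inhibitor of Janus kinases, measured 4.51 ± 0.485, 5.46 ± 1.33 and 10.2 ± 0.784 CPM from the first stage through to the last (SD, n = 3), and rose by 0.92 on withdrawal (adjusted p = 0.00458).

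The Irf genes, which encode transcription factors of interferon promoters, moved in different directions. *Irf9*, the partner of Stat2 in the complex that binds the ISRE, measured 22.5, 15.2 and 22.5 CPM in undifferentiated, 10.4, 10.6 and 11.5 in differentiated and 21, 24 and 22.2 in dedifferentiated libraries. The differentiated libraries were below all others. It changed by -0.96 under dbcAMP (SE 0.158, adjusted p = 0.000394) and by 1.06 on withdrawal (SE 0.159, adjusted p = 0.000346). *Irf3*, which is activated after viral nucleic acid is sensed, measured 77.8, 112 and 97.6 CPM in undifferentiated, 57.7, 70.1 and 71.5 in differentiated and 83.6, 75.2 and 77.1 in dedifferentiated libraries. It changed by -0.59 under dbcAMP (SE 0.124, adjusted p = 0.00198), and its log2 change of 0.26 on withdrawal was not called although the libraries did not overlap (adjusted p = 0.114). Against undifferentiated cells its log2 change of -0.33 was not called (adjusted p = 0.0685), but was with DESeq2's size factors (adjusted p = 0.0465), without the 10 most abundant genes (0.0483), without a low-count filter (0.0491), by DESeq2's Wald test (0.0309) and without undifferentiated replicate 1 (0.0141).

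*Irf7*, the regulator that amplifies type I interferon, measured 3.06, 3.17 and 1.57 CPM in undifferentiated, 16.9, 7.02 and 8.57 in differentiated and 9.16, 6.66 and 9.78 in dedifferentiated libraries. All differentiated and dedifferentiated libraries were above the undifferentiated ones, and differentiated replicate 1 stood highest. The log2 change was 2.02 under dbcAMP (SE 0.388, adjusted p = 0.00108). It was -0.33 on withdrawal, which was not called (adjusted p = 0.463), and *Irf7* stayed above undifferentiated cells by 1.69 (SE 0.392, adjusted p = 0.00865). *Irf5*, best known in macrophages, measured 0.564, 1.25 and 0.981 CPM in undifferentiated, 4.05, 7.02 and 4.19 in differentiated and 0.254, 0.696 and 0.602 in dedifferentiated libraries. The differentiated libraries were above all others, with log2 changes of 2.39 under dbcAMP (adjusted p = 0.000406) and -3.27 on withdrawal (adjusted p = 0.000155). *Irf5* passed the filter through its differentiated libraries, so a difference was built into its being tested.

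*Irf1*, itself induced by interferon, measured 12.3, 10.6 and 18.5 CPM in undifferentiated, 22.3, 11.5 and 19.5 in differentiated and 20.7, 28.9 and 27.5 in dedifferentiated libraries. The differentiated range overlapped both others. It was called between dedifferentiated and undifferentiated cells (log2 change 0.84, SE 0.261, adjusted p = 0.0333). That call was lost without undifferentiated replicate 1 or 2 or dedifferentiated replicate 2 or 3 (adjusted p = 0.0792, 0.121, 0.116 and 0.0907). *Irf2*, an antagonist of Irf1, measured 21.5, 17.5 and 23.9 CPM in undifferentiated, 19.2, 17.7 and 18 in differentiated and 17.7, 21.9 and 26.9 in dedifferentiated libraries. With all libraries in the main fit its lowest adjusted p was 0.166, on withdrawal. That change was called without dedifferentiated replicate 1 (log2 change 0.437, adjusted p = 0.0416). *Irf4* and *Irf8*, factors of blood cells, had at most 6 counts and 1 count in a library.

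The cytoplasmic RNA sensors showed no called change. *Ifih1* measured 16, 16.8 and 18 CPM in undifferentiated, 12.1, 16.7 and 13.5 in differentiated and 13.3, 16.7 and 17.6 in dedifferentiated libraries, with a log2 change of -0.33 under dbcAMP (adjusted p = 0.0773). That change was called without differentiated replicate 2 or dedifferentiated replicate 1 (adjusted p = 0.0284 and 0.0376). *Ddx58*, the gene of RIG-I, measured 4.79 to 10.2 CPM over the libraries. Of 7 other tested sensing and signalling genes, 1 was called higher and 4 lower under dbcAMP, and 3 higher and 2 lower on withdrawal, set against 59.6% and 46.4% of all genes called. Log2 medians of the 7 were -0.22 and 0.14, beside 0.05 and -0.01. *Myd88*, an adaptor of Toll-like receptors, measured 24.6 ± 1.89, 12.1 ± 1.31 and 23.8 ± 2.37 CPM from the first stage through to the last (SD, n = 3). *Traf3*, a signalling adaptor, measured 73.2 ± 3.56, 110 ± 3.4 and 67.5 ± 4.62 CPM from the first stage through to the last (SD, n = 3). *Mavs*, the mitochondrial adaptor of both sensors, rose by 0.63 on withdrawal (adjusted p = 0.000217).

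Of the effectors *Ifit2* and *Mx2* passed the filter. *Ifit2* encodes a protein that binds viral RNA and measured 39.1, 61.2 and 54.6 CPM in undifferentiated, 3.98, 10.6 and 10.9 in differentiated and 27.1, 28.9 and 29 in dedifferentiated libraries. No pair of stages overlapped. The log2 change was -2.65 under dbcAMP (SE 0.289, adjusted p = 1.84e-05) and 1.74 on withdrawal (SE 0.289, adjusted p = 0.000673). The difference of -0.91 that remained against undifferentiated cells (adjusted p = 0.0264) lost its call in 5 of 9 fits when single libraries were dropped. These were without undifferentiated replicate 2 or 3 or any of the dedifferentiated replicates (adjusted p = 0.0816, 0.0673, 0.0615, 0.0627 and 0.0746). Its family members *Ifit1* and *Ifit3*, of which *Ifit3* is its neighbour in the RefSeq gene order, had at most 2 and 7 counts in a library.

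*Mx2*, an interferon-induced GTPase, measured 0.725, 1.35 and 1.18 CPM in undifferentiated, 1.99, 2.7 and 2.47 in differentiated and 3.39, 3.38 and 2.86 in dedifferentiated libraries, and no pair of stages overlapped. It was higher than in undifferentiated cells under dbcAMP (log2 change 1.08, SE 0.312, adjusted p = 0.0118) and after withdrawal (1.52, SE 0.31, adjusted p = 0.00421). *Mx1* had 1 count over all libraries. *Isg15*, a ubiquitin-like protein and among the genes most strongly induced by interferon, had at most 4 counts in a library, or 0.322 CPM. *Usp18*, which removes Isg15 from proteins, had 8, 4 and 11 counts in undifferentiated, 1, 2 and 2 in differentiated and 0, 1 and 3 in dedifferentiated libraries and did not pass the filter. Without a filter it was called lower under dbcAMP (log2 change -2.33, adjusted p = 0.0296). The 12 Oas genes, which encode sensors of double-stranded RNA, together had 89 counts over the 9 libraries, 4 had none, and the highest level of any was 0.772 CPM. None passed the filter, and without a filter only *Oasl2* was called, on withdrawal (adjusted p = 0.0311), from 4, 4 and 4 counts in differentiated and none in dedifferentiated libraries.

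Of 25 other tested interferon-induced genes, 3 were called higher and 6 lower under dbcAMP, 4 higher and 3 lower on withdrawal, and 0 higher and 2 lower in dedifferentiated against undifferentiated cells. Over all genes 59.6%, 46.4% and 29.4% were called. Log2 medians of the 25 were -0.28, 0.20 and -0.04, beside 0.05, -0.01 and 0.02. *Igtp*, an interferon-induced GTPase, measured 24.5 ± 2.95, 8.49 ± 2.65 and 28.3 ± 2.43 CPM from the first stage through to the last (SD, n = 3). Its log2 change was -1.59 under dbcAMP (adjusted p = 3.66e-05) and 1.75 on withdrawal (adjusted p = 3.81e-05). *Samhd1*, which degrades nucleotides needed by viruses, changed the other way, by 1.90 and -1.69 (adjusted p = 0.000544 and 0.00172). *Eif2ak2*, a kinase activated by double-stranded RNA, changed by -0.60 under dbcAMP (adjusted p = 0.000627) and remained 0.39 lower on the log2 scale than in undifferentiated cells after withdrawal (log2 change -0.39, adjusted p = 0.0193). *Gbp2* changed by -1.06 on the log2 scale under dbcAMP (adjusted p = 0.0268), and its change of 0.76 on withdrawal was not called (adjusted p = 0.11). Of 7 chaperone and trimming genes of the class I pathway, 1 was called higher and 5 lower under dbcAMP, and 2 higher and 1 lower on withdrawal, with 59.6% and 46.4% of all genes called. Log2 medians of the 7 were -0.36 and 0.20, beside 0.05 and -0.01. *Erap1*, which trims peptides in the endoplasmic reticulum, measured 83.3 ± 9.48, 62.2 ± 7.6 and 105 ± 5.1 CPM from the first stage through to the last (SD, n = 3). *Tapbpl*, a tapasin-related editor, changed by -0.97 and 0.74, and the chaperone *Canx* by 0.53 and -0.33, under dbcAMP and on withdrawal.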

How the data were processed

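The authors deposited estimated counts per gene from the cell mRNA libraries, merged over libraries and made with Salmon per the name of the table; of these expected counts 1.15% were fractional. The submitters' processing notes also name FastQC, Trim Galore, cutadapt, STAR, HISAT2, SAMtools, Picard, bedtools, DESeq2 1.26.0 and MultiQC, with no roles. Salmon's version, the genome build and the annotation are not given in the sources used here. Columns were matched to samples by library code and stage. Their replicate suffix differs from the sample titles, which were followed. Vesicle miRNA and lncRNA libraries were not used here.

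CPM were computed on column totals. For tests, counts were rounded, filtered with filterByExpr (minimum count 10), scaled by TMM and fitted with edgeR 4.0.16 in R 4.3.3 (quasi-likelihood, all 9 libraries, no covariate). P-values were Benjamini-Hochberg adjusted over 10372 genes, and calls were made under 0.05. The SE is the log2 change divided by the square root of F. The interval of the class I sum uses the fit's degrees of freedom. Library values are given by rule for the tested loading, proteasome, Stat, Irf, *Ifih1* and *Mx2* members and for called RT1 and Ifit rows. Other pathway genes come from 7 lists, with up to 3 named by smallest p and *Gbp2*, *Cd80*, *Cd86* and *Cd40* named besides. Members and lists were chosen with earlier results of these data known. Alternatives covered the replicate block, sequencing project, scaling, filter, DESeq2 1.42.0, a fold threshold and leaving out each library. Leaving class I rows out of the count was chosen after seeing the data.

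Counts were simulated in 5 draws with the sizes of all 9 libraries, and 10276 genes were tested in the first. In each draw 200 genes were changed in the differentiated libraries. Of the changes, 85% of 2-fold and 97% of 4-fold ones were recovered, and 4.91% of calls were false. The spread followed the trend over genes, no pairs were simulated, and far fewer genes changed than were called here. These rates need not hold for the data. After stage means were subtracted, libraries with equal replicate numbers correlated by 0.234 to 0.304 for differentiated and undifferentiated cells, so the numbers were taken to pair those libraries. The main fit did not use this pairing, and calls that changed with the replicate block are given beside it. For dedifferentiated cells some same-numbered pairs were under 0.1 (down to 0.0823 against differentiated and 0.028 against undifferentiated cells), and the numbers were not taken as pairs. RefSeq tables of GRCr8 matched 88 of 91 members by symbol and gave promoters for 71. Some members counted among those tested are not reported here by name.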

Additional observations from a re-analysis of the deposited data

How the results depend on the processing

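With an absolute log2 change above 1 required, the members called in the 3 comparisons in order numbered 7, 7 and 2 in place of 13, 12 and 7. All other alternatives kept these counts within 1.5 times, except leaving out a library in the last. Leaving out each library gave 13 to 17, 11 to 14 and 4 to 8 calls, the 4 without dedifferentiated replicate 3. At least 10 counts in every library left 31 members, and raised or lowered the share called higher from 38.5% to 22.2% and from 75% to 88.9%. Without a low-count filter it was 64.3% on withdrawal and 66.7% against undifferentiated cells in place of 85.7%, where DESeq2's size factors, its Wald test and leaving out the 10 most abundant genes gave 75%. With the replicate block 15, 12 and 8 members were called, the added ones being *B2m*, *RT1-T24-1* and, against undifferentiated cells, *B2m* (adjusted p = 0.00101). It changed no other call of a member. On withdrawal 5, and against undifferentiated cells 4, of 6 libraries correlated best with their own number. The class I sum had no call anywhere, and its log2 change was 0.0172 with library size alone for differentiated against undifferentiated cells. On withdrawal it was 0.000638 without the 10 most abundant genes and 0.000277 without a filter. Leaving out each library it ranged from -0.19 to 0.10, -0.15 to 0.15 and -0.16 to 0.0703, and the cause was not tested. The median of the members ranged from -0.26 to 0.03, -0.02 to 0.28 and -0.08 to 0.14 in those fits. *RT1-CE7* against undifferentiated cells turned from -0.09 to 0.53 with the replicate block and 0.0395 with the project. Leaving out each library it ranged from -0.974 to 7.63. It was 7.63 without undifferentiated replicate 2, where that stage is listed at 0, and 0.42 without dedifferentiated replicate 2. The other scalings moved the median of all genes by at most 0.06 on the log2 scale. The 49 members under the filter, among them most effectors, held too few counts for a firm statement on their changes.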
